A study of Mus musculus with 10 samples.

Results

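The clustered protocadherins are a family of cell-surface adhesion proteins whose genes lie side by side in 3 arrays, alpha, beta and gamma. All 58 rows of the table whose symbol begins with Pcdha, Pcdhb or Pcdhg followed by a cluster number or letter were taken, 1 row per gene, out of 24453 gene symbols. They comprise 14 alpha genes, 22 beta genes and 22 gamma genes, the last made up of 12 of type A, 7 of type B and 3 of type C. All lie on chromosome 18 in GRCm38, the alpha genes between positions 36930285 and 37188897, the beta genes between 37264998 and 37521419, and the gamma genes between 37661775 and 37841873.

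In the alpha and gamma clusters each gene has a variable first exon with a promoter of its own, which is spliced to 3 constant exons at the 3′ end that all genes of the cluster share, whereas each beta gene is a single exon. In neurons each cell uses a few of these promoters, and the resulting combination of surface proteins lets a neuron tell its own branches from those of others. Promoter choice is known to depend on DNA methylation, CTCF and cohesin, and SETDB1, a methyltransferase for lysine 9 of histone H3, represses the locus in mouse neurons.

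The 10 libraries each came from 1 C57Bl/6J mouse. They hold RNA of germinal vesicle oocytes, which are grown oocytes that wait in meiotic prophase with an intact nucleus, with 16 denuded oocytes in each pool. The oocytes of all 10 libraries were isolated with 2.5 mM milrinone. The mutants are 4 Setdb1 F/-; ZP3-cre mice, which carry 1 floxed and 1 deleted Setdb1 allele and a Cre driven by the Zp3 promoter, active in growing oocytes. The Cre controls are 4 Setdb1 F/+; ZP3-cre mice, with 1 floxed and 1 wild-type allele and the same Cre. The Cre-free controls are 2 Setdb1 F/- mice, which have the alleles of the mutants but no Cre. No age of the mice is stated.

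Setdb1 itself ranged from 1.31 to 4.06 RPKM in mutants, from 25.1 to 52.5 RPKM in Cre controls and from 19.9 to 26.3 RPKM in Cre-free controls (difference -3.20 in log2(RPKM + 0.5), two-sided exact permutation p = 0.0048 over 210 splits, the smallest possible). The libraries held between 45946177 and 72650313 reads. Gene symbols with a value above 0 numbered 13844 to 15469 in mutants, 15947 to 16730 in Cre controls and 13723 to 14157 in Cre-free controls, so the Cre controls stood above all other libraries in this measure. The 12 oocyte markers summed to between 5820 and 5944 RPKM in mutants, 5712 and 7280 RPKM in Cre controls and 6396 and 7398 RPKM in Cre-free controls. Against them, 11 granulosa and cumulus markers summed to between 10.5 and 16.2 RPKM in mutants, 9.55 and 12.3 RPKM in Cre controls and 6.42 and 11.4 RPKM in Cre-free controls. The 9 blood, immune and endothelial markers summed to between 21.98 and 42.7 RPKM in mutants. Their sums were 29.9 to 40.2 RPKM in Cre controls and 45.4 to 46.8 RPKM in Cre-free controls. The highest means over all libraries were those of Pecam1 (17.6 RPKM), C1qb (13.8 RPKM) and Cd68 (2.29 RPKM). Cd68 had 7.99, 0.372, 7.16 and 0.042 RPKM in mutant replicates 1 to 4 and at most 3.24 RPKM in any control library. Hba-a1, Hbb-bs and Cdh5 were at 0 in all libraries. The 8 theca and stroma markers summed to at most 3.91 RPKM in any library.

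Nearly all clustered protocadherins were at or near 0 in these oocytes, with and without Setdb1, and no member passed the test in any comparison. The highest value of any member in any library was 1.56 RPKM, and 15 of 58 members reached 0.5 RPKM in at least 1 library, namely all 14 alpha rows and Pcdhb17. Only Pcdha11 and Pcdhb17 averaged 0.5 RPKM or more over all libraries, the limit for testing, and entered the limma fit, where 0 of 2 passed in mutants against all controls (0 of 2 at an unadjusted p under 0.05), beside 5.33% of the 11338 genes tested. When all 58 members were entered without a filter, 0 passed in limma in mutants against all controls, against Cre controls and against Cre-free controls, nor in the Cre controls against the Cre-free controls, where 1.46%, 1.63%, 1.14% and 0.11% of all 24453 genes passed. Unadjusted p-values under 0.05 were found for 1, 2, 0 and 2 members in these comparisons, Pcdhb15 alone in the first and Pcdhb15 and Pcdhb17 in the second and the fourth. Among the 11338 genes above the limit for testing, 19.8%, 19.2%, 21.5% and 14.0% had such p-values in limma. Most members lie below that limit, and the share over all 24453 genes is not given here. At the opposite end, 8 members were at 0 in all 10 libraries, all of them beta genes.

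Of the tested members Pcdhb17, a beta gene, differed most between groups. This gene of 3270 nucleotides lies at 37485021 to 37488290, and its protein is an adhesion protein with a short cytoplasmic tail and no constant part. Pcdhb17 had 0.778, 0.125, 0.359 and 0.0104 RPKM in mutant replicates 1 to 4, against 1.08, 1.37, 1.56 and 1.15 RPKM in Cre controls and 0.120 and 0.173 RPKM in Cre-free controls. These values stand for 156, 23, 64 and 2 reads in mutants, 218, 298, 289 and 259 reads in Cre controls and 18 and 41 reads in Cre-free controls. All 4 Cre controls lay above the other 6 libraries, and the mutants overlapped the Cre-free controls. Of the 11338 genes tested, 2.7% had all 4 Cre controls above all 6 other libraries. In pools of 16 oocytes, fewer oocytes with the transcript and less of it per oocyte cannot be told apart.

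**Figure D1:**
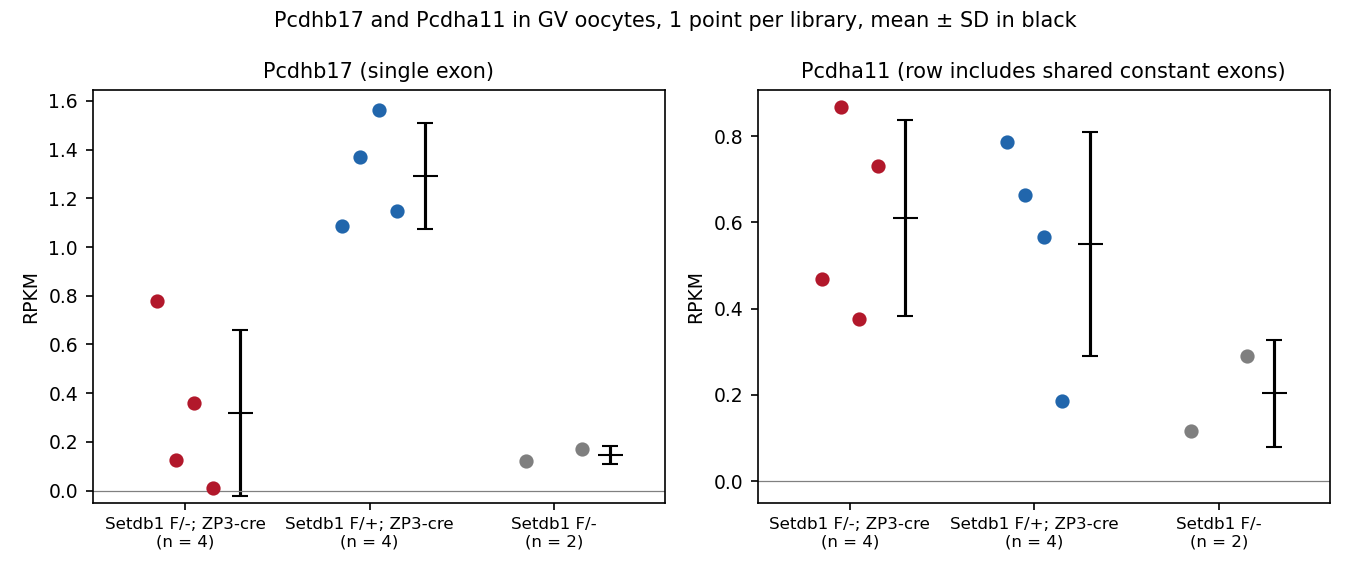
RPKM (y axis) of Pcdhb17 on the left and Pcdha11 on the right in the 4 Setdb1 F/-; ZP3-cre mutants (red), 4 Setdb1 F/+; ZP3-cre controls (blue) and 2 Setdb1 F/- controls (grey), with 1 point per library and the mean ± SD in black. For Pcdhb17 the 4 blue points lie between 1.08 and 1.56 RPKM and no other point exceeds 0.778 RPKM, while for Pcdha11 the groups overlap.

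Pcdhb17 averaged 0.318 ± 0.339 RPKM in mutants and 0.910 ± 0.615 RPKM in all controls (SD, n = 4 and 6), a difference of -0.72 ± 0.43 (SE) on the log2(RPKM + 0.5) scale that did not pass in limma (adjusted p = 0.38). The gene reached the limit for testing of 0.5 RPKM only through the Cre controls, since mutants and Cre-free controls each averaged less. Its filtered tests against that group are therefore not independent of the filter. Against the Cre controls alone, which averaged 1.29 ± 0.218 RPKM (SD, n = 4), the difference was -1.21 ± 0.34 with an adjusted p of 0.066 in limma, where 4.89% of genes passed. It lay just above the threshold, and the alternatives gave adjusted p-values from 0.033 to 0.190. Without any filter the adjusted p in limma was 0.096, where 1.63% of all 24453 genes passed. The difference against Cre controls passed under some alternatives. It passed without mutant replicate 1 (0.033), without Cre-free replicate 1 (0.047) and without Cre-free replicate 2 (0.046), with median centring of the libraries (0.048), without a variance trend (0.037), with array weights (0.041), and with a filter at 0.1 RPKM (0.0495), where 3.93% of genes passed. Against the Cre-free controls, which averaged 0.146 ± 0.0373 RPKM (SD, n = 2), the mutants differed by 0.25 ± 0.42 (adjusted p = 0.77), where 4.84% of genes passed. The Cre controls themselves were higher than the Cre-free controls by 1.46 ± 0.42 (adjusted p = 0.16), where 0.0706% of genes passed, and these comparisons share libraries. Within the mutants, the highest Pcdhb17 values were in replicates 1 and 3, which also had the most gene symbols above 0 (15273 and 15469), against 13844 and 13993 in replicates 2 and 4. The other groups did not have this order. Cre control replicate 3, with the highest value, had the fewest symbols of its group (15947). Cre-free replicate 2, with the higher value, had 13723 symbols against 14157 in replicate 1. The part of the number of genes detected in the Pcdhb17 difference was not tested.

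The other beta genes had few reads. Pcdhb17 took 1368 of the 1732 reads on the cluster over all libraries, or 79.0%. The exons of beta genes resemble each other, and the sources used here do not say how reads that match several of them were assigned. Pcdhb15 had 0.0350, 0, 0.0131 and 0.0122 RPKM in mutants, 0.0815, 0.134, 0.0633 and 0.0986 RPKM in Cre controls and 0.0623 and 0 RPKM in Cre-free controls. Its Cre controls lay above all other libraries, though the lowest of them by only a small margin, and the values rest on at most 25 reads. That margin was 10 reads in Cre control replicate 3 against 8 in Cre-free replicate 1. The share of genes at such low levels with this order is not given here, and the Cre controls also had the most gene symbols above 0. In the unfiltered limma fit Pcdhb15 differed between mutants and Cre controls by -0.21 ± 0.05 (adjusted p = 0.093), where 1.63% of all 24453 genes passed.

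Pcdhb8 had 0.0209, 0, 0.211 and 0.0510 RPKM in mutants, 0.0765, 0.0193, 0.0378 and 0.0248 RPKM in Cre controls and 0.0651 and 0 RPKM in Cre-free controls. Its highest value, 27 reads, was in mutant replicate 3, and the groups overlapped. Pcdhb6 was at 0 in all 4 mutants and all 4 Cre controls, and stood at 0.394 RPKM, about 65 reads, in Cre-free replicate 1 and at 0 in Cre-free replicate 2. Pcdhb3, named after its values were seen, gave a similar picture in another library, with 30 reads in mutant replicate 1, 2 and 3 reads in Cre control replicates 3 and 4, and 0 in the rest. Pcdhb6 and Pcdhb3 thus each had most of their reads in 1 library, whereas Pcdhb8 had reads in 8 of 10.

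**Figure D2:**
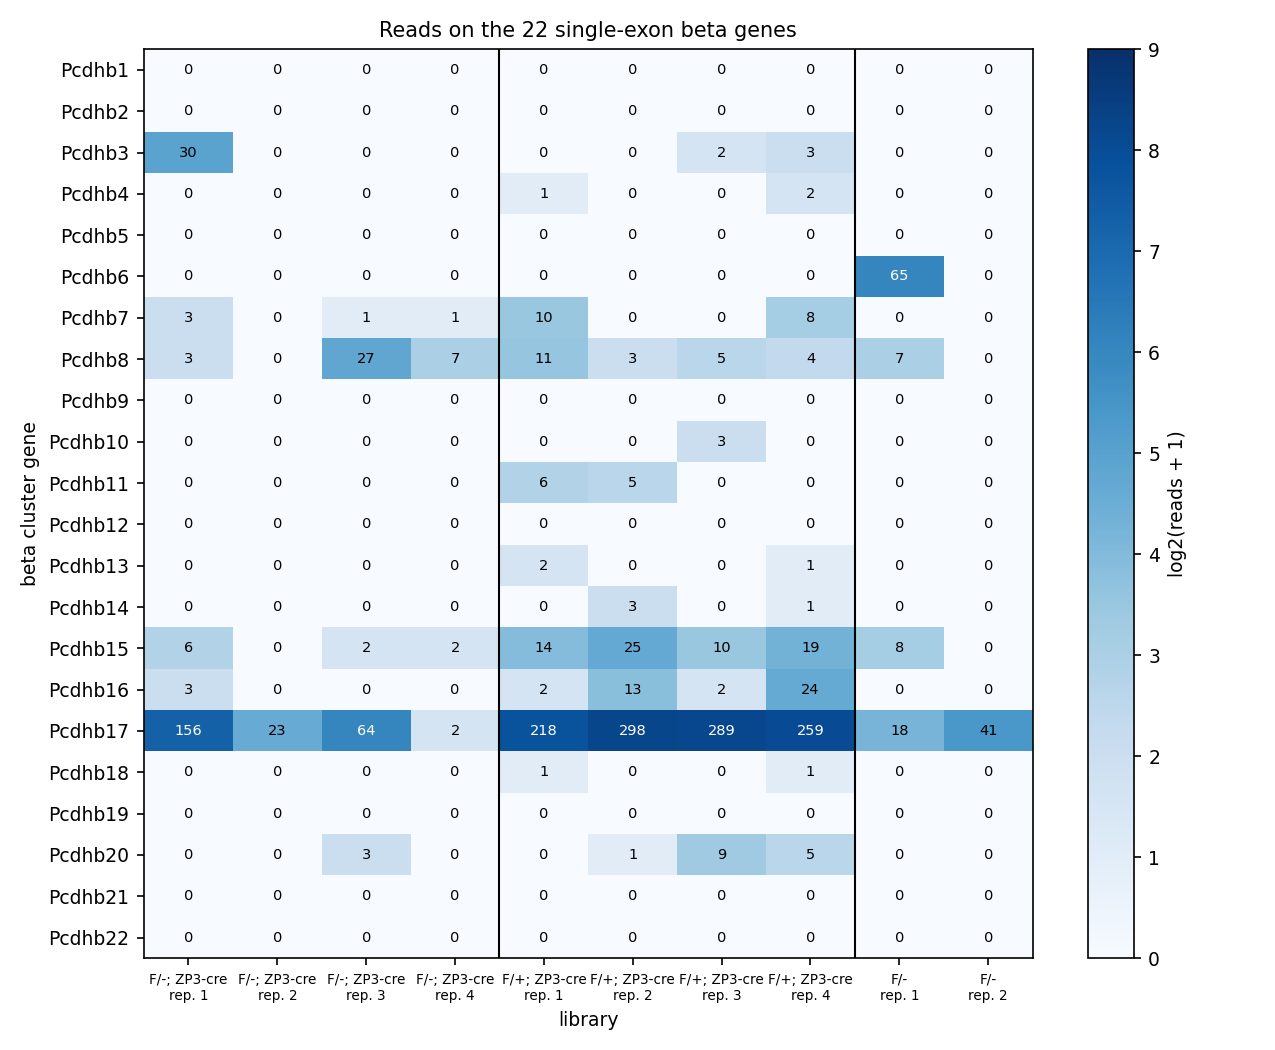
Reads on the 22 single-exon beta genes (rows) in each library (columns), with Setdb1 F/-; ZP3-cre mutants on the left, Setdb1 F/+; ZP3-cre controls in the middle and Setdb1 F/- controls on the right. The number in a cell is the read count and the colour its log2(reads + 1). Pcdhb17 has reads in all 10 libraries, and 8 genes have none in any.

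The 8 beta genes without a read were Pcdhb1, Pcdhb2, Pcdhb5, Pcdhb9, Pcdhb12, Pcdhb19, Pcdhb21 and Pcdhb22. With transcripts of 2457 to 4714 nucleotides, a count of 0 (3 reads as the limit) allows up to between 0.0104 and 0.0224 RPKM in a mutant library, up to between 0.00923 and 0.0216 RPKM in a Cre control library and up to between 0.00876 and 0.0266 RPKM in a Cre-free library. Amplified reads are not independent molecules, so these limits cover counting error only. They remained undetected in mutants as in controls at this depth.

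In the alpha cluster the rows of the table hardly differ from each other, because most of their reads fell on the constant exons and were counted once in every row. Each row holds 3 constant exons of 2860 nucleotides in all. The reads common to all 14 rows numbered 151, 254, 70 and 225 in mutants, 243, 187, 165 and 56 in Cre controls and 28 and 111 in Cre-free controls. Expressed as RPKM over the constant exons this was 1.06 ± 0.504 in mutants (SD, n = 4), 0.917 ± 0.459 in Cre controls (SD, n = 4) and 0.374 ± 0.227 in Cre-free controls (SD, n = 2). Mutants and Cre controls overlapped over nearly their whole range, and both Cre-free libraries lay within the range of the Cre controls or below it. The 14 alpha rows are thus close to a single measurement repeated, and their agreement is no evidence that 14 genes moved together.

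Reads beyond the constant exons, which can be assigned to a gene, were few. They made up 7.16% of the alpha reads in mutants, 13.0% in Cre controls and 4.79% in Cre-free controls, and 9 of 14 alpha genes had none in any library. Single libraries carried these shares: without mutant replicate 3 the share in mutants was 2.33%, and without Cre-free replicate 2 that in Cre-free controls was 0, while in Cre controls it lay between 9.38% and 16.2% without any 1 library. In mutant replicate 4, 225 reads lay on the constant exons and 0 on any variable exon of the 14 rows. The first exon of an alpha transcript is nearly as long as the constant part, 2394 against 2860 nucleotides in Pcdha11. Strand was not recorded and transcripts that are not among the 14 rows were not analysed here.

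**Figure D3:**
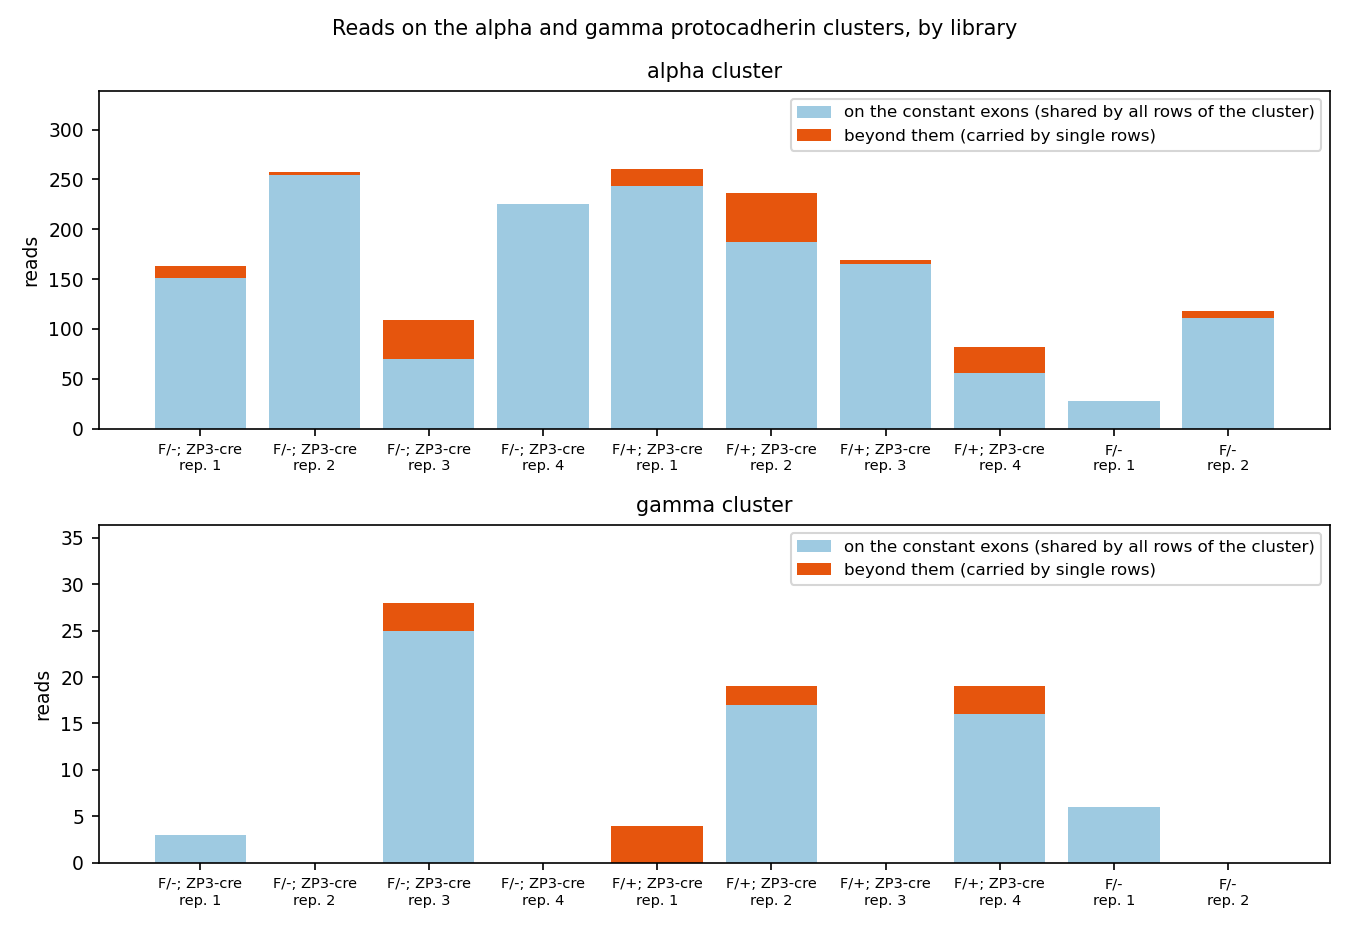
Reads (y axis) on the alpha cluster above and the gamma cluster below, by library (x axis), split into reads on the constant exons that all rows of a cluster share (blue) and reads beyond them that single rows carry (orange). In the alpha cluster the constant exons hold most reads in all 10 libraries, and in the gamma cluster the total exceeds 20 reads in mutant replicate 3 alone.

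Pcdha11 carried most of the reads that belong to a single alpha gene, 110 of 158. They numbered 0, 2, 38 and 0 in mutants, 11, 45, 3 and 11 in Cre controls and 0 and 0 in Cre-free controls. All 4 Cre controls had some, but most lay in Cre control replicate 2 and mutant replicate 3. With the constant exons included, the Pcdha11 row had 0.469, 0.867, 0.377 and 0.730 RPKM in mutants, 0.787, 0.663, 0.566 and 0.185 RPKM in Cre controls and 0.116 and 0.291 RPKM in Cre-free controls. In limma the row differed by 0.28 ± 0.32 (SE) between mutants and all controls (adjusted p = 0.68), by 0.10 ± 0.33 between mutants and Cre controls (adjusted p = 0.90), by 0.65 ± 0.40 between mutants and Cre-free controls (adjusted p = 0.38) and by 0.55 ± 0.40 between the Cre controls and the Cre-free controls (adjusted p = 0.57). The second of these changed sign without mutant replicate 2 (-0.011) and without Cre control replicate 4 (-0.096).

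The other 13 alpha rows averaged between 0.461 and 0.475 RPKM over the 10 libraries, led by Pcdha5, Pcdha7 and Pcdha3, for which 0 reads beyond the constant exons were counted. The next most read variable exons were those of Pcdhac1 and Pcdhac2, the C-type genes at the end of the cluster, which most neurons express without random choice. Pcdhac2 had 0, 1, 1 and 0 such reads in mutants, 3, 0, 0 and 13 in Cre controls and 0 and 7 in Cre-free controls. Pcdhac1 had 12, 0, 0 and 0 in mutants, 1, 3, 0 and 0 in Cre controls and 0 in both Cre-free controls. Neither gene had its reads in 1 genotype. Pcdha12 had 6 reads in all, in 3 Cre controls, and Pcdha2 had 1 read.

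The gamma cluster was lower still. Its 3 constant exons of 2119 nucleotides drew 3, 0, 25 and 0 reads in mutants, 0, 17, 0 and 16 in Cre controls and 6 and 0 in Cre-free controls, and these reads were counted in all 22 rows, apart from 1 of the 25 in Pcdhga9. In all groups some libraries had reads and others had none. Reads beyond the constant exons came to 12 over the 10 libraries, on 5 genes. Pcdhgc3, a C-type gene, had 3, 1, 0 and 1 of them in Cre controls and 0 in all mutants and Cre-free controls. Pcdhga4 had 3 in mutant replicate 3, Pcdhga10 had 2 in Cre control replicate 4, and Pcdhgb4 and Pcdhgb7 had 1 each in a Cre control. The mean RPKM of a gamma row lay between 0.0221 and 0.0260 over the 10 libraries and the highest single value was 0.113 RPKM, for Pcdhga4 in mutant replicate 3.

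Summed over rows, the alpha cluster came to 8.07 ± 3.77 RPKM in mutants, 7.03 ± 3.48 RPKM in Cre controls and 2.84 ± 1.74 RPKM in Cre-free controls, sums that count the constant exons 14 times. The beta cluster, whose rows share no exon, summed to 0.449 ± 0.430 RPKM in mutants, 1.53 ± 0.182 RPKM in Cre controls and 0.407 ± 0.331 RPKM in Cre-free controls. The gamma sums likewise count the reads on the gamma constant exons in each row. Types A, B and C thus differ mainly by their 12, 7 and 3 rows. The gamma A rows summed to 0.329 ± 0.578 RPKM in mutants, 0.316 ± 0.366 RPKM in Cre controls and 0.169 ± 0.238 RPKM in Cre-free controls. The gamma B rows summed to 0.194 ± 0.340 RPKM in mutants, 0.189 ± 0.216 RPKM in Cre controls and 0.1001 ± 0.142 RPKM in Cre-free controls. The gamma C rows summed to 0.0792 ± 0.139 RPKM in mutants, 0.0803 ± 0.0871 RPKM in Cre controls and 0.0408 ± 0.0577 RPKM in Cre-free controls (all SD, n = 4 mutants, 4 Cre controls and 2 Cre-free controls). Mutant replicate 3 carried most of the mutants' gamma sums, which without it were 0.0421 RPKM for gamma A, 0.0250 RPKM for gamma B and 0.0102 RPKM for gamma C. Without mutant replicate 1 the beta sum in mutants was 0.269 RPKM. In the Cre controls the gamma A sum was 0.202 RPKM without replicate 2. In the Cre-free controls the gamma sums were 0 and the beta sum 0.173 RPKM without replicate 1, and the alpha sum was 1.62 RPKM without replicate 2. Only the beta sum stood apart in the Cre controls, at 1.34 to 1.75 RPKM against at most 0.987 RPKM in any other library, and Pcdhb17 made up most of it.

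Counted as a value above 0, between 15 and 42 of the 58 members were detected in a mutant library (median 29.5), between 21 and 47 in a Cre control library (median 34) and 15 and 40 in the Cre-free libraries. The counts within a group differed mainly through the gamma constant exons, since a read there puts all 22 gamma rows above 0 at once. Members with at least 1 read that they did not share numbered 7, 3, 8 and 4 in mutants, 15, 12, 9 and 16 in Cre controls and 4 and 2 in Cre-free controls. In this count the Cre controls were above all other libraries, and over all libraries 24 of 58 members had such a read. With every library thinned to the depth of the shallowest, the expected number was 6.95, 2.78, 7.65 and 3.69 in mutants, 13.8, 10.7, 8.73 and 14.3 in Cre controls and 4 and 2.00 in Cre-free controls, so the Cre controls were also above the others after thinning to equal library totals, a calculation that treats amplified reads as independent. The Cre controls also had the most gene symbols above 0 of any kind, and the part of that in the count was not tested.

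**Figure D4:**
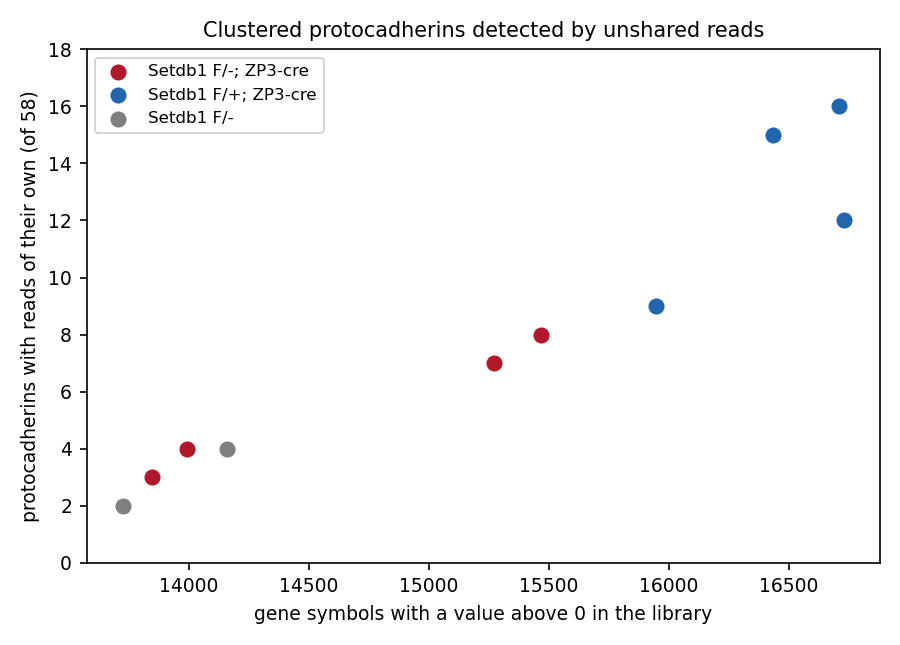
Number of clustered protocadherins with reads of their own, out of 58 (y axis), against the number of gene symbols with a value above 0 (x axis), 1 point per library. The 4 Setdb1 F/+; ZP3-cre controls (blue) lie at 9 to 16 members and 15947 to 16730 symbols, above and to the right of the Setdb1 F/-; ZP3-cre mutants (red) and Setdb1 F/- controls (grey), which lie at 2 to 8 members.

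Of 25 genes that flank the clusters or lie between them, 16 averaged 0.5 RPKM or more and were tested, and 9 lay below that limit. In limma 0 of the 16 passed in mutants against all controls, beside 5.33% of all genes tested, and 3 of them (18.8%) had an unadjusted p under 0.05, beside 19.8% of all genes tested. They had a median difference of 0.19 beside 0.03 over all genes tested. Taf7, a subunit of the general transcription factor TFIID whose gene lies between the beta and gamma clusters, averaged 40.7 ± 6.13 RPKM in mutants and 34.2 ± 2.86 RPKM in all controls (SD, n = 4 and 6). Its neighbour Slc25a2, a mitochondrial carrier gene, was at 0 in all 10 libraries. Expressed genes and nearly silent genes thus sat next to each other in this region in all 3 genotypes. The 3 most abundant of the flanking genes were Ik, a splicing factor, Ndufa2, a subunit of respiratory complex I, and Rnf14, a ubiquitin ligase, whose levels lay between 37.3 and 108 RPKM in mutants and between 29.3 and 112 RPKM in controls.

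Among protocadherins outside the clusters, Pcdh9 was abundant and rose in mutants. This gene encodes a delta-type protocadherin, which has a unique cytoplasmic tail and is not subject to the promoter choice of the clusters. Pcdh9 had 50.0, 39.3, 42.9 and 40.3 RPKM in mutants, 21.1, 14.5, 18.6 and 20.3 RPKM in Cre controls and 19.5 and 21.6 RPKM in Cre-free controls. No mutant overlapped any control, and the difference was 1.15 ± 0.14 (SE) against all controls (limma, adjusted p = 0.00018), 1.20 ± 0.15 against Cre controls (adjusted p = 0.00044) and 1.05 ± 0.18 against Cre-free controls (adjusted p = 0.0062), a call that array weights ended (adjusted p = 0.302). All 4 mutants lay above all 6 controls for 4.62% of the genes tested. Pcdh9 was the only one called of 3 tested (33.3%) in a list of 12 non-clustered protocadherins, beside 5.33% of all genes tested against all controls. Pcdh15, a component of the tip links of inner-ear hair cells, differed by -0.59 ± 0.24 (adjusted p = 0.18) and Pcdh10 by 0.34 ± 0.37 (adjusted p = 0.66) against all controls. Pcdh12 and Pcdh20 were at 0 in all libraries.

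**Figure D5:**
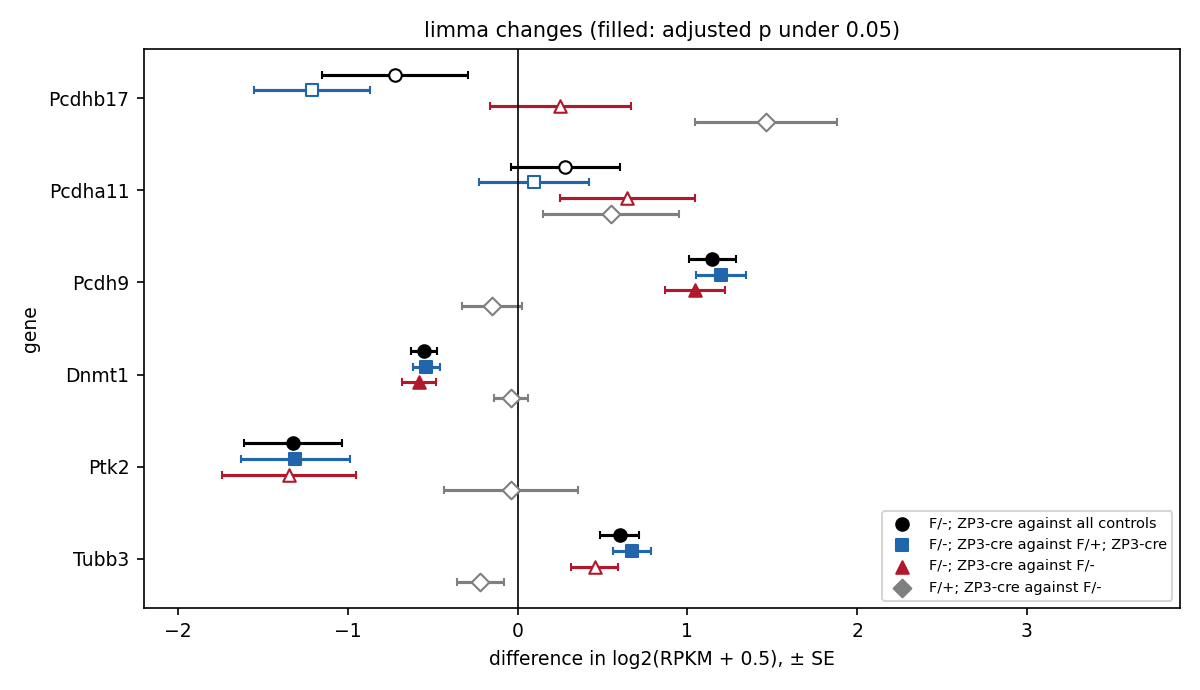
Difference in log2(RPKM + 0.5) ± SE (x axis) for 6 genes (y axis) in 4 comparisons, with filled symbols for an adjusted p under 0.05 in limma. Pcdhb17 and Pcdha11 have open symbols throughout, and the difference of Pcdhb17 is -1.21 against Setdb1 F/+; ZP3-cre and 0.25 against Setdb1 F/-, while those of Pcdh9 lie between 1.05 and 1.20 in all 3 comparisons with mutants.

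Of the genes known to act on protocadherin promoter choice and on the folding of the locus, 22 of 23 were tested and 1 (4.55%) passed against all controls, beside 5.33% of all genes tested. This was Dnmt1, the maintenance DNA methyltransferase, which fell to 351 ± 22.8 RPKM in mutants, against 514 ± 32.7 RPKM in all controls (SD, n = 4 and 6; difference -0.55 ± 0.08, limma adjusted p = 0.00081). It also passed against Cre controls (-0.54 ± 0.08, adjusted p = 0.0022) and against Cre-free controls (-0.58 ± 0.10, adjusted p = 0.0065), though not without a filter (adjusted p = 0.062), with quantile normalization (adjusted p = 0.094), without a variance trend (adjusted p = 0.081) or with array weights (adjusted p = 0.221). Without a trend it also missed against Cre controls (adjusted p = 0.058). No mutant reached a control library in Dnmt1, as for 3.56% of the genes tested. Ctcf, the insulator protein that binds at protocadherin promoters, differed by 0.20 ± 0.18 (adjusted p = 0.58), Dnmt3b, which methylates unused promoters of the clusters in mouse, by -0.27 ± 0.23 (adjusted p = 0.56), and Smchd1, a repressor of the clusters in mouse, by -0.23 ± 0.16 (adjusted p = 0.47). The most abundant others were the cohesin release factor Wapl (-0.13 ± 0.12, adjusted p = 0.60) and the cohesin subunit Smc3 (-0.10 ± 0.11, adjusted p = 0.66).

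A list of SETDB1 and its partners in silencing held 14 tested genes, and Setdb1 itself was the only one (7.14%) that passed against all controls. Over all genes tested 5.33% passed. Setdb1 is the deleted gene, so its call says nothing of the partners, and no partner passed in this comparison. Trim28, the corepressor that brings SETDB1 to its targets, differed by -0.11 ± 0.19 (adjusted p = 0.80), and Atf7ip, which keeps SETDB1 stable in the nucleus, by 0.49 ± 0.15 (adjusted p = 0.083). Mphosph8, a subunit of the HUSH silencing complex, differed by 0.08 ± 0.12 (adjusted p = 0.78). Morc2a, a chromatin remodeler that works with HUSH, passed against Cre controls only (0.68 ± 0.17, adjusted p = 0.038), and lost that call without any 1 of mutant replicates 1 and 3 and Cre control replicates 1 to 4 (adjusted p from 0.082 to 0.128). The chromatin remodeler Atrx passed against Cre-free controls only (0.64 ± 0.16, adjusted p = 0.043), and lost that call without any 1 library other than Cre-free replicate 1 (adjusted p from 0.054 to 0.249).

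Of 19 tested genes for proteins that bind or process clustered protocadherins, 1 (5.26%) passed against all controls, beside 5.33% of all genes tested. Ptk2 encodes focal adhesion kinase, which the constant tails of alpha and gamma protocadherins bind and inhibit. Ptk2 fell to 2.79, 1.33, 5.12 and 4.02 RPKM in mutants, against 7.27, 7.03, 9.45 and 9.38 RPKM in Cre controls and 6.81 and 10.5 RPKM in Cre-free controls, with no overlap. The difference was -1.32 ± 0.29 against all controls (limma, adjusted p = 0.016), -1.31 ± 0.32 against Cre controls (adjusted p = 0.037) and -1.35 ± 0.39 against Cre-free controls (adjusted p = 0.071). The call against all controls was lost when low genes were not filtered out (adjusted p = 0.082). The call against Cre controls was lost without mutant replicate 1 or any 1 Cre control (adjusted p from 0.081 to 0.126). The related kinase Ptk2b differed by 1.15 ± 0.42 (adjusted p = 0.14). Among the most abundant members, Wasf2, an actin regulator of the WAVE complex, differed by -0.06 ± 0.14 (adjusted p = 0.85) and the kinase Rock1 by -0.31 ± 0.11 (adjusted p = 0.14). Of 8 tested classical cadherins and catenins, 0 passed against all controls in limma (0 at an unadjusted p under 0.05), and E-cadherin (Cdh1), at 81.5 to 96.1 RPKM in mutants and 75.6 to 90.6 RPKM in controls, was the most abundant.

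Markers of neurons, the cells in which the clusters are best known, were mostly low. Of 12, 4 were tested, and Nefl, Nefm, Stmn2 and Gap43 were at 0 in all libraries. In limma 1 of the 4 (25%) passed against all controls, beside 5.33% of all genes tested. An unadjusted p under 0.05 was found for 3 of the 4 (75%), beside 19.8% of all genes tested. Their median difference was 0.51 beside 0.03 over all genes tested. Tubb3, a beta-tubulin, rose to 92.3 ± 8.46 RPKM in mutants, against 60.9 ± 8.06 RPKM in all controls (SD, n = 4 and 6; difference 0.60 ± 0.11, limma adjusted p = 0.0069). It passed against Cre controls (0.67 ± 0.11, adjusted p = 0.0043) and not against Cre-free controls (0.45 ± 0.14, adjusted p = 0.080), and Elavl3 and Syt1 did not pass. Of the 12 oocyte markers 1 (8.33%) passed against all controls, beside 5.33% of all genes tested. This was Nobox, an oocyte transcription factor (0.42 ± 0.10, limma adjusted p = 0.023). Its call was lost without any 1 of mutant replicates 1 and 2 and Cre control replicates 1 and 4 (adjusted p from 0.054 to 0.077). Zp1, a zona pellucida gene, passed against Cre-free controls only (-0.45 ± 0.09, adjusted p = 0.019), a call lost without Cre-free replicate 2 (adjusted p = 0.070).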

How the data were processed

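The authors deposited RPKM (reads scaled by transcript length and library total) for 34768 RefSeq rows in 10 libraries. Per the labels' protocols, oocytes were isolated with 2.5 mM milrinone, cDNA was made by single-primer isothermal amplification (NuGen Ovation) and unstranded libraries with a TruSeq DNA kit. Per the submitters' processing notes, bcl2fastq 1.8.3, STAR and mm10 were used. The counting tool is not stated in these sources. Reads per member and library totals were recovered from the RPKM and transcript lengths, taken from GENCODE M21 exons and RefSeq gene spans. For the alpha and gamma rows and Pcdhb6, the length used was the one nearest the annotation that gave whole reads. It differed from the annotated length by as much as -1371 nucleotides in Pcdha6 and 1383 in Pcdhgb8. Each total was chosen as a whole number that gave whole reads on the beta genes (all but 1 in Cre-free replicate 1). That these came out whole is therefore no check. Outside the clusters, 86.6% to 89.7% of the values of single-exon genes came within 0.05 of a whole read. The recovered reads serve to describe, not to test.

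Genes averaging 0.5 RPKM or more (11338, the row with the highest mean per symbol) were tested with limma 3.58.1 in R 4.3.3 on log2(RPKM + 0.5), a scale that understates changes of low genes. Variance had an empirical Bayes trend, and p-values were Benjamini-Hochberg adjusted over all genes tested with a threshold of 0.05. Mutants against all controls used a model with 2 levels, the other comparisons a model with 3 groups. On simulated data for mutants against all controls (11338 genes), 39% of simulated log2 changes of 1 and 84% of those of 2 were recovered. These shares were lower in the other comparisons. They were 26% and 75% against Cre controls, 22% and 67% against Cre-free controls, and 24% and 49% between the control groups. Replicates are separate mice. Named are Pcdha11, members reaching 0.5 RPKM, the 4 highest of each subcluster, and the called and most abundant genes of background lists. Members and lists were chosen with earlier results of these data known. The values of 1 gene of these lists are not reported here.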

Additional observations from a re-analysis of the deposited data

Results flagged for a closer look

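The reads on the gamma constant exons stood out in 1 mutant library. In mutant replicate 3 they came to 0.216 RPKM over these exons, against 0.0231, 0 and 0 in mutant replicates 1, 2 and 4, so this library lay far from the nearest of the others relative to the range of its group. The value rests on 25 reads. It was the only 1 flagged among 14 groups of 4 libraries examined in this way. Chance flags about 1 in 20 groups of normally distributed values. Low read counts with many 0 values are not of that kind, and the groups share libraries, so the rate here is unknown. The same library had the highest Pcdhb8 value and the most reads on the variable exon of Pcdha11 among mutants.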

How the results depend on the processing

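No clustered protocadherin passed in any comparison as tested. Pcdha11 and Pcdhb17 were tested under all alternatives but the filter at 2 RPKM, and all 58 members without a filter and 15 with the filter at 0.1 RPKM. Of these, Pcdhb17 passed under some. For mutants against Cre controls its adjusted p was below 0.05 with a filter at 0.1 RPKM, with median centring (0.048), without a variance trend (0.037), with array weights (0.041) and without any 1 of 3 libraries, and in a fit of the Cre controls as the only controls (0.045). With quantile normalization the difference from Cre-free controls was -0.016. Pcdha11 turned to -0.021 against all controls and -0.057 against Cre controls with array weights, to between -0.096 and 0.21 against Cre controls when single libraries were left out, and to -0.020 between the control groups with quantile normalization. Both stayed far from the threshold there. Of the called genes outside the clusters, Ptk2 (adjusted p = 0.082) and Nobox (0.086) lost the call against all controls without a filter, and Dnmt1 against Cre controls without a trend (0.058). Against Cre-free controls, array weights ended the calls of Setdb1 (0.120), Dnmt1 (0.221) and Pcdh9 (0.302).

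The replicate number as a block is no pairing stated in the labels, and same-numbered libraries of different groups did not deviate together (8 pairs, correlations from -0.046 to 0.031). With this replicate block the adjusted p of Pcdhb17 against Cre controls was 0.129, the calls of Morc2a (0.076), Zp1 (0.097) and Atrx (0.149) ended, and the calls numbered 236 higher and 140 lower against all controls, 244 and 139 against Cre controls, 163 and 60 against Cre-free controls, and 1 and 0 between the control groups.

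Counts of called genes moved by over 1.5 times as follows. As tested, 352 genes were higher and 252 lower in mutants against all controls, 313 and 241 against Cre controls, 369 and 180 against Cre-free controls, and 3 and 5 in the Cre controls against the Cre-free controls. Against all controls, no filter gave 221 higher and 136 lower, a threshold of 0.01 gave 149 and 63, array weights gave 807 and 581, every RefSeq row gave 415 lower, and the Cre controls as the only controls gave 395 lower. Against Cre controls, no filter gave 199 higher, the stricter threshold 136 and 62, array weights 807 and 589, and every row 398 lower. Against Cre-free controls, no filter gave 192 and 87, the stricter threshold 123 and 36, array weights 46 and 6, and every row 278 lower. Between the control groups, a pseudocount of 0.1 gave 17 and 8, no filter 19 and 8, a filter at 2 RPKM 14 and 11, quantile normalization 9 and 8, no trend 5 and 2, the stricter threshold and array weights 0 and 0, median centring 8 higher and summed rows 5 higher. The filter at 2 RPKM removed both tested members, so it gives no value for them.

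Leaving out single libraries gave these ranges. Genes higher and lower numbered 238 to 439 and 121 to 355 against all controls, 160 to 512 and 66 to 393 against Cre controls, and 198 to 991 and 79 to 476 against Cre-free controls. Between the control groups they numbered 0 to 546 and 0 to 294, with both maxima without Cre-free replicate 1. The cause was not tested.

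At a limit of 0.1 RPKM the median number of members detected was 15.5 in mutants, 15 in Cre controls and 15.5 in Cre-free controls, and at 0.02 RPKM it was 16.5 in mutants, 29.5 in Cre controls and 27.5 in Cre-free controls. With unshared reads only, an alternative chosen after seeing the data, it was 5.5 in mutants, 13.5 in Cre controls and 3 in Cre-free controls, and after thinning 5.32 in mutants, 12.2 in Cre controls and 2.9995 in Cre-free controls. Subcluster sums moved by less than the SD within a group under scaling, but that SD is wide. Leaving out 1 library always moves the mean of a group by less than its SD, so this comparison cannot test the sums. Without any 1 library the gamma A sum in mutants ranged from 0.0421 to 0.439 RPKM. The beta sum in mutants ranged from 0.269 to 0.572 RPKM in the same way. Members other than Pcdhb17 and the alpha rows rest on at most 65 reads in a library.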
